A study of Mus musculus with 15 samples.

Results

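The regulatory T cell and tolerance genes were 8 genes, picked by name: Foxp3, Ikzf2, Il2ra, Tnfrsf18, Ccr8, Il10, Ebi3 and Tgfb1. The array carried 12 probes for them, and all 12 were read, out of 41003 probes tested, which stood for 32171 genes. They were measured in total RNA of mouse hearts and livers on 15 Agilent 1-colour arrays, in 5 groups of 3. The heart POD5 allografts were hearts of B10 donors (C57BL/10) placed in the abdomen of sex-matched CBA recipients and taken on postoperative day 5 (POD5). The liver POD5 and POD8 allografts were livers of B10.BR donors placed orthotopically in B10.D2 recipients and taken on day 5 or day 8. The heart controls and the liver controls were labelled as normal tissue, and the study's text also calls its comparison groups isografts, so whether a control organ had been transplanted is not settled here, and neither is its strain. The mice were males, their ages were not given in the sources used here, and no immunosuppressive drug was named for any group. The heart and liver models therefore differed in donor strain, recipient strain and operation as well as in organ, and these cannot be told apart. Nothing in the labels says that the 3 arrays of a group came from separate animals, so the p-values measure only the spread between arrays. The study's qRT-PCR methods give 3 mice per time point, without saying so for the arrays.

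Regulatory T cells are CD4 T cells that restrain other T cells, and the transcription factor Foxp3 sets up and keeps their program. They carry much of the high-affinity interleukin 2 receptor chain Il2ra (CD25) and of the receptor Tnfrsf18 (GITR), and many express Ikzf2 (Helios), a zinc finger transcription factor, and Ccr8, a chemokine receptor. Il10, Tgfb1 and interleukin 35, of which Ebi3 is a subunit, are suppressive cytokines. Apart from Foxp3 none of these genes belongs to regulatory T cells alone: Il2ra and Tnfrsf18 are induced on any activated T cell, Ikzf2 is also found in natural killer cells and some other lymphocytes, macrophages make Il10 and Tgfb1, and Ebi3 is also a subunit of interleukin 27, which myeloid cells secrete. In a graft, such genes are known both from rejection, where activated T cells enter the tissue, and from tolerance, for which mouse liver grafts are a classical model.

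Of the 8 genes, 6 had a promoter in the RefSeq table used here (build GRCm38.p6), with 7 promoters in all because Foxp3 had a second start. Each window ran from 250 bases before the start of the gene to 50 after it. Those of 4 genes that rose in the heart allografts are shown because they let a reader compare the control regions of genes that moved together, with short motifs in capitals.
Foxp3, chrX:7579426-7579725, plus strand: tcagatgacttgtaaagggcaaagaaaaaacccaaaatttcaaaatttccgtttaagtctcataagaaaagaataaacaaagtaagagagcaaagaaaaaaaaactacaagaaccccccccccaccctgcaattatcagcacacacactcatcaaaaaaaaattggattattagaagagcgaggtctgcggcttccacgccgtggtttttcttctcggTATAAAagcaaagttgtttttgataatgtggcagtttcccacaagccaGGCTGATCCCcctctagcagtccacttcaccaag
Il2ra, chr2:11642542-11642841, plus strand: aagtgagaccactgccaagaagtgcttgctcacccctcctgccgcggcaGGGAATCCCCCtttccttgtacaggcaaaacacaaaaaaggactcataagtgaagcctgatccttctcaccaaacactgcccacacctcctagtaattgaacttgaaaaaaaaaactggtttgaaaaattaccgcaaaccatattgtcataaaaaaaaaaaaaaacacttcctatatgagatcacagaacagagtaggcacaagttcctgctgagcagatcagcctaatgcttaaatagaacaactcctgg
Tnfrsf18, chr4:156026072-156026371, plus strand: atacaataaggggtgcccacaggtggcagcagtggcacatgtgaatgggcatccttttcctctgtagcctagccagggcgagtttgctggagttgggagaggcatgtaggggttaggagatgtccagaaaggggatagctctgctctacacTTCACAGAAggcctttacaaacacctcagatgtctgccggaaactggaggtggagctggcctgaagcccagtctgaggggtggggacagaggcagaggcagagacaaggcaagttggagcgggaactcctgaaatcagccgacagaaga
Ebi3, chr17:55952373-55952672, plus strand: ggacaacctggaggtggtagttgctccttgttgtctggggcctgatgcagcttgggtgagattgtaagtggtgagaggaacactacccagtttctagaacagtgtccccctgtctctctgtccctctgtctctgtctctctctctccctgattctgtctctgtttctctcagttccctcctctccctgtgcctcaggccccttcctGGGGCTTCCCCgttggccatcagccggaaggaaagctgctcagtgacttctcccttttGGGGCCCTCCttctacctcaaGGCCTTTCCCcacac

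The capitals mark matches, on either strand, to short letter patterns, with overlapping matches joined. A loose NF-kappaB pattern, GGG and CC with any 5 bases between them, was in the first Foxp3, the Il2ra and the Ebi3 windows. In all it was in 5 of the 7 windows, but 50.8% of all 32851 promoters of this length in the table held it too. The STAT pattern, TTCNNNGAA, stood in the Tnfrsf18 window and in that of the second Foxp3 start, against 8.3% of all promoters. The TATA box, TATAAA, was found in the first Foxp3 window, where it ended 27 bases before the start, and in 13.6% of all promoters. The AP-1 pattern, TGANTCA, was in 7.81% of all promoters and in none of the 7 windows. The core of the interferon-stimulated response element, GAAA repeated after any 2 bases, was in 3.44% of all promoters and in none of the 7 windows. A match is a description of letters, and no binding was measured.

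Signals are given as log2 of the scanner's processed signal after quantile normalization over the 15 arrays, and a signal is called well above background where the scanner software marked it so. The tissue labels were borne out by markers: the mean of 6 cardiomyocyte genes lay between 15.17 and 16.66 on the heart arrays and between 3.52 and 4.65 on the liver arrays, and that of 6 hepatocyte genes between 15.76 and 16.05 on the liver arrays and between 2.65 and 3.88 on the heart arrays. The arrays differed in brightness before normalization, with the 75th percentile of the processed signal at 92.1 to 226 in the liver controls, 338 to 478 in the liver POD5 and 384 to 454 in the liver POD8 allografts, 394 to 710 in the heart allografts and 1021 to 1247 in the heart controls. The 3 heart allografts shared slide 1 and its scan day with liver POD5 array 3. The 3 heart controls had slide 2 and a scan day to themselves, so in the heart the group cannot be told apart from the slide. The liver POD5 allografts shared no slide with the liver controls or the POD8 allografts, and the heart controls none with the liver controls. In those comparisons, too, group and slide cannot be told apart, and the heart against liver interaction rests on them. T cell markers moved with the groups. The summed signal of 10 of them, Cd3d, Cd3e, Cd3g, Cd5, Cd6, Lat, Trat1, Bcl11b, Themis and Ubash3a, was 13.23 to 13.81 in the heart allografts against 8.80 to 9.43 in the heart controls, and 12.62 to 13.38 and 12.27 to 12.66 in the liver POD5 and POD8 allografts against 9.42 to 9.87 in the liver controls. Of the 10, 9 rose in the heart, 7 in POD5 livers and 7 in POD8 livers (limma), beside 13.6%, 7.89% and 6.64% of all genes, and none fell. Trat1 was well above background on no liver array and Ubash3a on no liver control. The summed signal of 5 CD8 and cytotoxic cell genes was 15.13 to 15.96 against 8.84 to 9.33 in the heart, and 13.74 to 14.22 against 7.87 to 8.36 in the liver. In whole tissue, more cells of a type and more RNA per cell cannot be told apart.

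Most of the regulatory T cell genes were higher in allografts than in controls of the same organ, in both organs. In the heart at POD5, 6 of 8 rose (Foxp3, Il2ra, Tnfrsf18, Ccr8, Il10 and Ebi3) and none fell, beside 13.6% of all 32171 genes that rose and 14.8% that fell (limma, Benjamini-Hochberg adjusted p under 0.05). In the liver at POD5, 6 rose (Ikzf2, Il2ra, Tnfrsf18, Il10, Ebi3 and Tgfb1), beside 7.89% of all genes that rose and 7.17% that fell. In the liver at POD8, 6 rose (Ikzf2, Tnfrsf18, Ccr8, Il10, Ebi3 and Tgfb1), beside 6.64% that rose and 4.96% that fell. As a median over the 8 genes, the log2 difference came to 1.74 for hearts, 1.41 for POD5 livers and 1.5 for POD8 livers, beside 0.03, -0.08 and -0.11 over all genes. All 3 allograft arrays lay above all 3 controls for 6 of the 8 genes in the heart (29.9% of all genes), 6 in POD5 livers (12.2%) and 7 in POD8 livers (11.9%). Tnfrsf18, Il10 and Ebi3 rose in all 3 comparisons, and Foxp3 passed in the heart and in neither liver comparison. Both liver comparisons share the 3 liver controls. The balance of all calls depended on the scaling: 48% of the heart calls, 52.4% of the liver POD5 calls and 57.3% of the POD8 calls were higher, and with each array scaled to its 75th percentile instead, 75.8%, 29.5% and 18.1% were. With 3 arrays against 3, an exact permutation test cannot give a p below 0.10 for a single gene, so the calls rest on the limma fit.

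**Figure D1:**
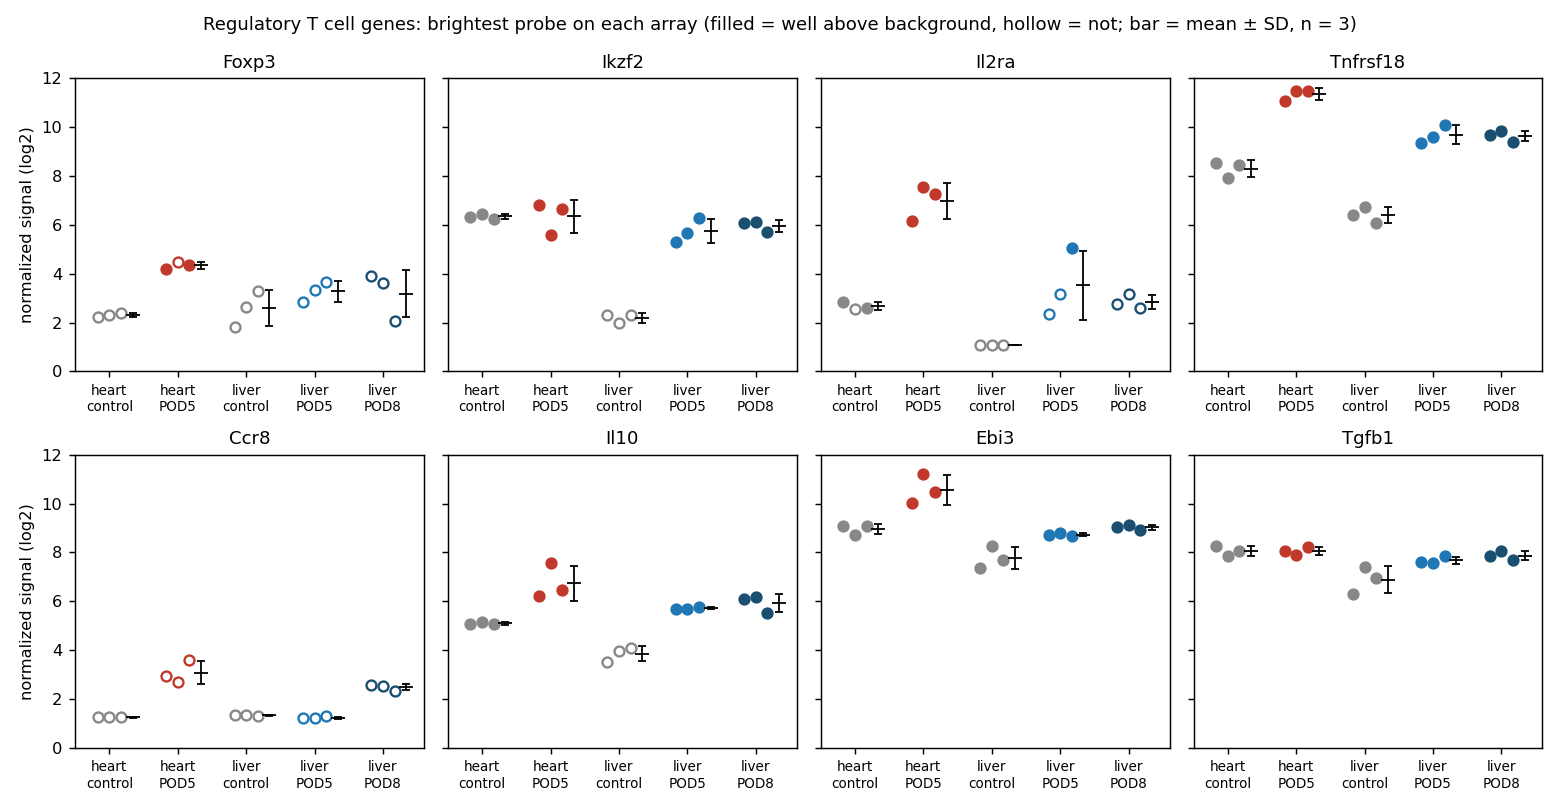
Normalized log2 signal (vertical axis) of the brightest probe of each of the 8 genes on each of the 15 arrays, by group (horizontal axis). Filled points are well above background and hollow points are not, and the black bar is the group mean ± SD (n = 3). Tnfrsf18 was above 9 on all 9 allograft arrays and below 9 on the 6 control arrays, Foxp3 was filled on 2 heart allograft arrays alone, and Ccr8 was hollow on every array.

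Foxp3, the transcription factor that defines regulatory T cells, was close to the background limit of the array. Its 1 probe (A_51_P401096) read 4.20, 4.47 and 4.35 in the 3 heart allografts and 2.21, 2.30 and 2.39 in the heart controls. It read 2.83, 3.32 and 3.68 in the liver POD5 allografts, 3.89, 3.6 and 2.08 in the liver POD8 allografts and 1.82, 2.64 and 3.29 in the liver controls. The heart groups did not overlap, the liver groups did, and the signal was well above background on heart allograft arrays 1 and 3 and on no other. Foxp3 rose by 2.04 (SE 0.45) on the log2 scale in the heart, at least 3.63-fold (limma, adjusted p = 0.0049). With normexp background correction the difference was 0.24, and it was still called (limma, adjusted p = 0.0095). That setting adds an offset of 50 to every signal before the log, which by itself shrinks the differences of dim probes. Since the control group was not above background, the fold is a lower bound: the control was set, on each array, no lower than the lowest signal that was well above background there. In the liver the difference was 0.69 (SE 0.45) at POD5 (adjusted p = 0.33) and 0.60 (SE 0.45) at POD8 (adjusted p = 0.41), with no array above background, so a smaller rise was not detectable by this probe there. On the slide that held 2 arrays of each group, the POD8 difference was 1.51, and with slide as a fixed block, an alternative chosen after seeing the data, it was called (adjusted p = 0.0082). Liver POD8 array 3, at 2.08, and liver control array 3, at 3.29, both lay on other slides.

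Ikzf2, which encodes Helios, a member of the Ikaros family of zinc finger transcription factors, rose in the liver and did not pass the test in the heart. Its brightest probe (A_52_P413515) read 6.83, 5.58 and 6.67 in the heart allografts and 6.34, 6.44 and 6.26 in the heart controls, a difference of 0.01 (SE 0.32, limma, adjusted p = 0.99). The heart groups overlapped, with heart allograft array 2 below all 3 controls. In the liver the same probe read 5.31, 5.65 and 6.30 at POD5, 6.08, 6.12 and 5.69 at POD8, and 2.29, 1.97 and 2.31 in the controls, none of which was well above background. Ikzf2 thus stood at a similar level in 4 of the 5 groups and was dim in the liver controls. It rose in the liver by 3.56 (SE 0.32) at POD5, at least 2.67-fold (adjusted p = 2.5e-05), and by 3.77 (SE 0.32) at POD8, at least 3.10-fold (adjusted p = 1.7e-05). The array had 3 more Ikzf2 probes, and they did not all show this. A_51_P413398 was 1.51 (SE 0.58) higher in the liver at POD5 (adjusted p = 0.10) and rose by 2.15 (SE 0.58) at POD8 (adjusted p = 0.033), with the controls again not above background. Natural killer cells can express Ikzf2, and 4 of their markers were read. Their summed signal was 6.68 to 7.52 at POD5 and 7.22 to 7.94 at POD8 against 5.15 to 5.98 in the liver controls. In the heart it was 9.27 to 9.64 against 7.28 to 7.63. Of the 4, 2 rose at POD5, 4 at POD8 and 4 in the heart (limma), beside 7.89%, 6.64% and 13.6% of all genes. In the liver controls 3 of them (Ncr1, Klre1 and Klra8) were well above background on no array. The part of natural killer cells in the Ikzf2 values was not tested. The remaining probes, A_52_P333414 and A_52_P431483, were dim, never marked as well above background, and their liver differences were -0.65 and -0.82 at POD5, neither of them called.

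**Figure D2:**
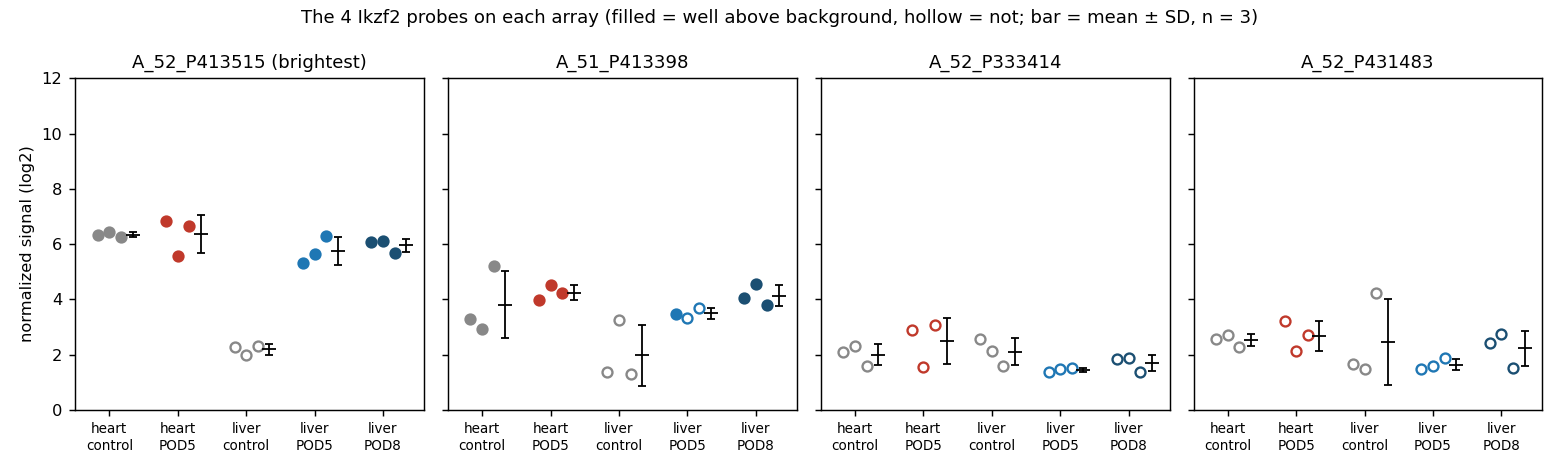
Normalized log2 signal (vertical axis) of each of the 4 Ikzf2 probes on the 15 arrays, by group (horizontal axis). Filled points are well above background, hollow points are not, and bars are the mean ± SD (n = 3). The brightest probe is near 6 in every group but the liver controls, at about 2, while the last 2 probes are hollow throughout.

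Il2ra, the alpha chain that gives the interleukin 2 receptor its high affinity, rose in the heart on both of its probes. Its brighter probe (A_52_P277016) read 6.14, 7.55 and 7.26 in the heart allografts against 2.86, 2.55 and 2.61 in the heart controls, a 19.8-fold rise (log2 4.31, SE 0.55, limma, adjusted p = 0.00014). The second probe (A_52_P243438) rose by 3.30 (SE 0.25), at least 4.05-fold (adjusted p = 3.4e-06). In the liver the brighter probe read 2.34, 3.16 and 5.06 at POD5, 2.76, 3.16 and 2.59 at POD8, and 1.08, 1.08 and 1.1 in the controls. The single liver array on which it was well above background was POD5 array 3, the one that shared the slide of the heart allografts. The liver POD5 difference of 2.43 (SE 0.55) passed the test (limma, adjusted p = 0.012). With normexp background correction and its offset of 50 the value was 0.44 and did not pass (adjusted p = 0.20). The offset shrinks the differences of dim probes, and its part in the lost call was not tested. No fold can be given against controls at the lowest signal of the array. At POD8 the difference was 1.75 (SE 0.55, adjusted p = 0.06), but it passed with slide as a random block (1.78, adjusted p = 0.038) or, as an alternative chosen after seeing the data, a fixed block (1.88, adjusted p = 0.023), and with scan day as a random block (adjusted p = 0.046). It passed too with the 6 arrays fitted alone (1.36, adjusted p = 0.017), with dim probes filtered out (adjusted p = 0.038), by the methods' t-test with Benjamini-Hochberg adjustment (adjusted p = 0.038), and without heart allograft array 2, liver POD5 array 1 or liver POD5 array 3 (adjusted p = 0.049, 0.034 and 0.0055). The second probe did not bear out a rise in the liver: it differed by 0.25 (SE 0.25, adjusted p = 0.56) at POD5 and by -0.03 (SE 0.25, adjusted p = 0.96) at POD8.

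Tnfrsf18, the GITR receptor, rose by a similar amount in all 3 comparisons. Its 1 probe (A_51_P469401) was well above background on all 15 arrays. It read 11.07, 11.48 and 11.50 in the heart allografts and 8.54, 7.91 and 8.45 in the heart controls. In the liver it read 9.37, 9.61 and 10.11 at POD5, 9.68, 9.83 and 9.41 at POD8, and 6.41, 6.74 and 6.07 in the controls. No allograft array overlapped a control array of its organ. Tnfrsf18 rose 8.28-fold in the heart (log2 3.05, SE 0.25, limma, adjusted p = 5e-06), 9.79-fold in the liver at POD5 (log2 3.29, SE 0.25, adjusted p = 7.2e-06) and 9.41-fold at POD8 (log2 3.23, SE 0.25, adjusted p = 8.5e-06).

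Ccr8, a chemokine receptor of skin-homing and regulatory T cells, gave signals that the scanner software marked as well above background on none of the 15 arrays, so no fold is given. Its 1 probe (A_51_P225380) read 2.93, 2.71 and 3.59 in the heart allografts and 1.24, 1.25 and 1.24 in the heart controls. It read 1.23, 1.20 and 1.28 in the liver POD5 allografts, 2.56, 2.52 and 2.33 in the POD8 allografts, and 1.36, 1.33 and 1.3 in the liver controls. The heart allografts and the liver POD8 allografts were the 2 groups that stood above the rest. The log2 difference was 1.84 (SE 0.18) in the heart (limma, adjusted p = 2.3e-05), -0.09 (SE 0.18) in the liver at POD5 (adjusted p = 0.80) and 1.14 (SE 0.18) at POD8 (adjusted p = 0.0018). The POD8 call was lost with scaling to the 75th percentile, where the value was -0.01, and with normexp, where it was 0.17. Under both the heart call held, with values of 3.24 and 0.22 (limma, adjusted p = 4e-06 and 0.03). The normexp offset of 50 shrinks the differences of dim probes such as this.

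Il10, the interleukin 10 cytokine, rose in both organs. Its 1 probe (A_51_P430766, printed in 10 spots) read 6.21, 7.56 and 6.46 in the heart allografts and 5.08, 5.15 and 5.05 in the heart controls. It read 5.68, 5.70 and 5.76 in the liver POD5 allografts, 6.08, 6.19 and 5.5 in the POD8 allografts and 3.50, 3.95 and 4.09 in the liver controls, which were not well above background. Il10 rose 3.14-fold in the heart (log2 1.65, SE 0.30, limma, adjusted p = 0.0017), at least 2.60-fold in the liver at POD5 (log2 1.87, SE 0.30, adjusted p = 0.0017) and at least 3.01-fold at POD8 (log2 2.08, SE 0.30, adjusted p = 0.00099). None of its allograft arrays overlapped the controls of its organ. By the methods' t-test with Benjamini-Hochberg adjustment none of the 3 passed (adjusted p = 0.058, 0.056 and 0.063). Macrophages make Il10 too. In an alternative chosen after seeing the data, the mean of 7 macrophage and Kupffer cell markers was subtracted on each array. The liver differences were then 0.96 and 0.67 and did not pass (limma, adjusted p = 0.15 and 0.23), while that of the heart was 2.12 and still called. The subtraction shifts every gene alike, down in the liver and up in the heart. Of the 7 markers themselves, none was called in the liver at POD5, 2 rose at POD8, and 1 rose and 2 fell in the heart. The part of macrophages in the Il10 values was not tested.

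Ebi3, the subunit that interleukin 27 and interleukin 35 share, read 10.02, 11.23 and 10.47 in the heart allografts and 9.08, 8.72 and 9.08 in the heart controls (probe A_51_P202633). It read 8.71, 8.80 and 8.68 in the liver POD5 allografts, 9.03, 9.13 and 8.93 in the POD8 allografts and 7.38, 8.25 and 7.71 in the liver controls. The groups did not overlap in either organ. Ebi3 rose 3.06-fold in the heart (log2 1.61, SE 0.28, limma, adjusted p = 0.0011), 1.93-fold in the liver at POD5 (log2 0.95, SE 0.28, adjusted p = 0.039) and 2.38-fold at POD8 (log2 1.25, SE 0.28, adjusted p = 0.013). The liver POD5 call was lost when any of 11 of the 15 arrays was left out, with values of 0.75 to 0.97 and adjusted p = 0.051 to 0.13. The POD8 call was lost without POD8 array 2 (1.20, adjusted p = 0.054), with slide as a fixed block (adjusted p = 0.058), with the 6 arrays fitted alone (adjusted p = 0.05) and by the methods' t-test with Benjamini-Hochberg adjustment (adjusted p = 0.12).

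Tgfb1, transforming growth factor beta 1, rose by a small amount in the liver and did not pass the test in the heart. Its probe (A_51_P390715, 10 spots) read 8.07, 7.91 and 8.22 in the heart allografts and 8.28, 7.87 and 8.05 in the heart controls, a ratio of 1.0 (log2 SE 0.24, limma, adjusted p = 1). In the liver it read 7.60, 7.58 and 7.84 at POD5, 7.87, 8.07 and 7.68 at POD8, and 6.31, 7.41 and 6.94 in the controls. It rose 1.72-fold at POD5 (log2 0.79, SE 0.24, adjusted p = 0.044) and 1.98-fold at POD8 (log2 0.99, SE 0.24, adjusted p = 0.019). These rises were near the spread of the liver controls: the POD5 call was lost when any of 13 of the 15 arrays was left out, with 0.50 as the lowest value, without liver control array 1, and the POD8 call when POD8 array 1 or 2 was (adjusted p = 0.06 and 0.082). Macrophages make Tgfb1, and the summed signal of 7 macrophage and Kupffer cell markers was 15.90 to 16.33 in the liver POD5 and 16.37 to 16.71 in the POD8 allografts against 14.01 to 15.42 in the liver controls, and 14.33 to 14.70 against 14.18 to 14.83 in the heart. In an alternative chosen after seeing the data, the mean of these markers was subtracted on each array. The Tgfb1 difference was then -0.12 at POD5 and -0.42 at POD8, and that of Ebi3 was -0.16 at POD8. On that scale 2 of the 8 genes were called at POD5 and 2 at POD8 (limma). The subtraction lowers every gene of a liver comparison by the same amount, and the share of all genes called was not computed. The part of macrophages in these values was not tested.

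**Figure D3:**
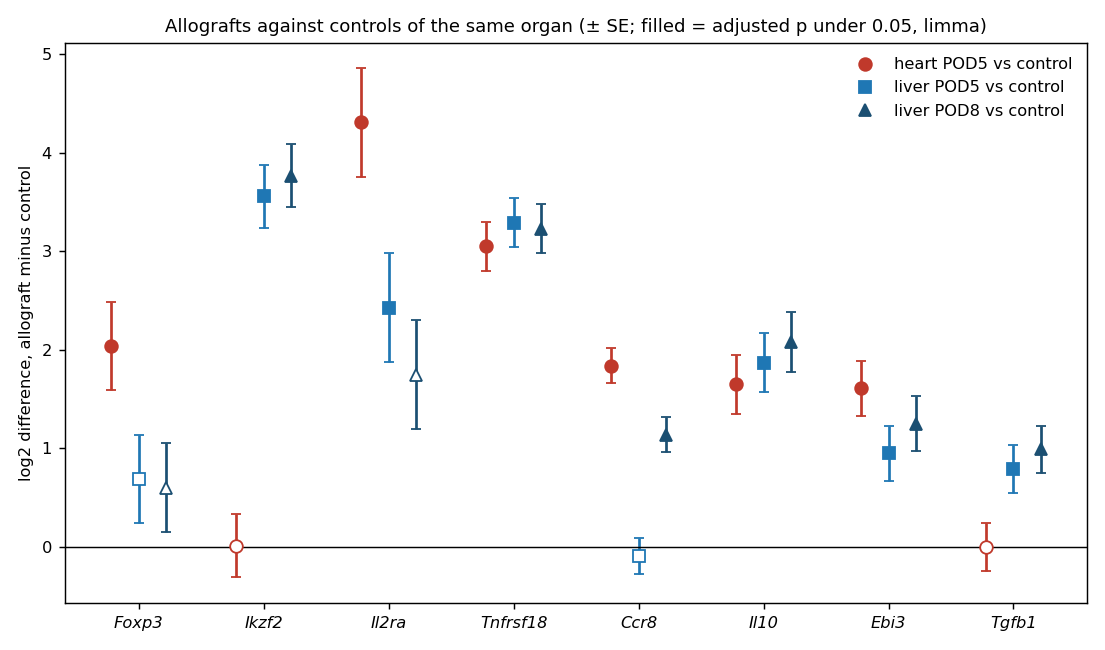
Log2 difference between allografts and controls of the same organ (vertical axis, ± SE) for the 8 genes (horizontal axis), in the heart at POD5 (circles), the liver at POD5 (squares) and the liver at POD8 (triangles), n = 3 arrays a group. Filled points passed an adjusted p of 0.05 (limma). Il2ra has the highest heart value, 4.31, and Ikzf2 the highest liver values, 3.56 and 3.77, with 0.01 in the heart.

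The difference between the heart response and the liver response at POD5 was tested directly as an interaction. Of the 8 genes, 2 passed (Ikzf2 and Ccr8), beside 18.1% of all genes, so the share is close to the background. The Ikzf2 difference was 3.55 lower in the heart (log2 -3.55, SE 0.45, limma, adjusted p = 0.00057), and the Ccr8 difference was 1.92 higher (SE 0.26, adjusted p = 0.0008). Foxp3 (1.35, SE 0.63, adjusted p = 0.16) and Il2ra (1.88, SE 0.78, adjusted p = 0.11) had larger heart differences that did not pass, although the second Il2ra probe did (3.05, SE 0.36, adjusted p = 0.0004). Without liver POD5 array 3, the Il2ra value was 2.60 and passed (adjusted p = 0.0077). Tnfrsf18 (-0.24, SE 0.35, adjusted p = 0.66), Il10 (-0.22, SE 0.43, adjusted p = 0.76), Ebi3 (0.66, SE 0.39, adjusted p = 0.26) and Tgfb1 (-0.79, SE 0.33, adjusted p = 0.12) did not pass. The Ikzf2 call came from its brightest probe alone. Probe A_51_P413398 gave -1.08 (SE 0.82, limma, adjusted p = 0.38), and the dim A_52_P333414 and A_52_P431483 gave 1.16 and 0.97 (adjusted p = 0.14 and 0.45). The Ikzf2 call was lost when the 4 probes were averaged (-0.62, adjusted p = 0.22), and the Ccr8 call with normexp and its offset of 50 (0.20, adjusted p = 0.18).

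Set directly against liver POD5 allografts, heart POD5 allografts had more of 5 of the 8 genes and less of none, beside 18.5% of all genes that were higher and 14.9% that were lower. Il2ra was 11.1-fold higher (log2 3.47, SE 0.55, limma, adjusted p = 0.00031), Ebi3 3.59-fold (1.85, SE 0.28, adjusted p = 0.00021), Tnfrsf18 3.15-fold (1.65, SE 0.25, adjusted p = 0.0002) and Il10 2.04-fold (1.03, SE 0.30, adjusted p = 0.019). Ccr8 was 1.84 higher (SE 0.18, adjusted p = 5.6e-06), dim on all 6 arrays. Foxp3 (1.06, SE 0.45, adjusted p = 0.09), Ikzf2 (0.61, SE 0.32, adjusted p = 0.17) and Tgfb1 (0.39, SE 0.24, adjusted p = 0.25) did not pass. The Il10 call was lost without liver POD5 array 1 (1.02, limma, adjusted p = 0.051) or array 2 (1.03, adjusted p = 0.051), and in 4 of 14 other alternatives. Against the 1 liver array on the slide of the heart allografts, the differences were 1.93 for Il2ra, 1.24 for Tnfrsf18 and 0.66 for Foxp3. Those of Ebi3 (1.89), Ccr8 (1.80) and Il10 (0.99) kept their size. The controls of the 2 organs differed as well: heart controls were higher than liver controls in 6 of the 8 genes, beside 25.8% of all genes that were higher and 27.5% that were lower. Ikzf2 was at least 4.03-fold higher in the heart controls (log2 4.16, SE 0.32, adjusted p = 3.2e-07), Tnfrsf18 3.72-fold (1.90, SE 0.25, adjusted p = 3.7e-05), Ebi3 2.27-fold (1.18, SE 0.28, adjusted p = 0.0032), Tgfb1 2.27-fold (1.18, SE 0.24, adjusted p = 0.0011) and Il10 at least 1.69-fold (1.25, SE 0.30, adjusted p = 0.004). Il2ra was 1.59 higher (SE 0.55, adjusted p = 0.027), with 2 of 3 heart controls above background, a call that was lost in 5 of the 15 fits that left out an array. The Foxp3 difference between the controls was -0.28 (SE 0.45, adjusted p = 0.62) and that of Ccr8 -0.09 (SE 0.18, adjusted p = 0.73).

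Between POD5 and POD8 in the liver, none of the 8 genes was called (limma), beside 0.0373% of all genes, 12 in number. At an unadjusted p under 0.05, a cut at which the share of all genes was not computed, 1 of the 8 passed, Ccr8. The methods' t-test with Benjamini-Hochberg adjustment called 0. For 2 of them, Ccr8 and Ebi3, the 3 POD8 arrays lay above the 3 POD5 arrays, beside 8.81% of all genes. The largest difference was that of Ccr8, 1.23 higher at POD8 (SE 0.18, adjusted p = 0.058). That value passed when any of 4 arrays was left out (heart allograft array 2 or 3, liver POD8 array 3 or liver control array 1), with adjusted p = 0.0049 to 0.048, and none of the 6 signals was well above background. The other 7 differences lay between -0.68 (Il2ra, SE 0.55) and 0.30 (Ebi3, SE 0.28). By order of group means, 7 of the 8 genes were highest in the heart allografts, although for Ikzf2 (6.36 against 6.34) the heart controls came next and overlapped them. For Tgfb1 the heart allografts and the heart controls had the same mean to 2 decimals (8.07) and overlapped. For Il2ra and Tnfrsf18 the liver POD5 allografts came next, and for Il10 and Ebi3 the liver POD8 allografts. Liver controls were lowest for Ikzf2, Il2ra, Tnfrsf18, Il10, Ebi3 and Tgfb1. The lower places of Foxp3 and Ccr8 are not ordered, since no array there was well above background. The 2 liver allograft groups overlapped in every gene but Ccr8 and Ebi3.

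Since the members rose along with T cell markers, they were also read relative to them, by subtracting the mean log2 signal of the 10 T cell markers from every value of an array. That mean was 8.19 to 8.85 in the heart allografts against 4.85 to 5.39 in the controls, and 7.81 to 8.52 and 7.58 to 7.92 in the liver allografts against 4.75 to 5.61. It includes Trat1, well above background on no liver array, and Ubash3a, on no liver control, so its liver rise may be understated. On this scale almost every gene of the tissue falls, 98.4% in hearts, 96.5% in POD5 livers and 94.6% in POD8 livers, so the calls tell the members apart less than their values do. Il2ra and Tnfrsf18 lay within 1 of 0 in all 3 comparisons. Il2ra differed from them by 0.82 (SE 0.50), -0.52 (SE 0.50) and -0.76 (SE 0.50), in hearts, POD5 livers and POD8 livers, and none of these passed (limma, adjusted p = 0.13, 0.32 and 0.16). These values moved with the processing: with 75th percentile scaling they were 1.08, -1.31 and -1.74 (adjusted p = 0.037, 0.014 and 0.0022), and with normexp -0.67, -1.44 and -1.27 (adjusted p = 0.01, 6.2e-06 and 3.2e-05). Other settings also gave calls for Il2ra. In the heart they were the 6 arrays alone (0.98, adjusted p = 0.046) and the fit without heart allograft array 1 (1.27, adjusted p = 0.028). In the liver they were the mean of both probes (-1.53 and -1.58) and Cd3 genes alone (-1.38 and -1.76) on both days, the fit without liver POD5 array 3 at POD5 (-1.07, adjusted p = 0.039) and, at POD8, the 6 arrays alone (-1.13) and the methods' t-test with Benjamini-Hochberg adjustment (adjusted p = 0.049). Tnfrsf18 differed by -0.45 (SE 0.33, adjusted p = 0.20), 0.34 (SE 0.33, adjusted p = 0.33) and 0.72 (SE 0.33, adjusted p = 0.048). With Cd3 genes alone as the scale its values were -0.75 in the heart (adjusted p = 0.045) and -0.53 and -0.28 in the liver, with normexp those of the heart and of POD5 were 0.47 and 0.56 (adjusted p = 0.031 and 0.012), and the POD8 call was lost when any of 11 of the 15 arrays was left out, down to 0.50 without liver control array 3. Foxp3 lay 1.46 below the T cell markers in the heart (log2 -1.46, SE 0.41, adjusted p = 0.0027), and -2.26 and -1.91 in the liver (SE 0.41, adjusted p = 5.6e-05 and 0.00032), where its probe was not above background and its rise may be understated. In the heart its controls were not above background either, so its rise there may be understated too. Ikzf2 was at -3.48 (SE 0.35) in the heart (adjusted p = 7.5e-08) and at 0.61 (SE 0.35, adjusted p = 0.10) and 1.26 (SE 0.35, adjusted p = 0.0026) in the liver, but with the 4 probes averaged the liver values turned to -1.97 and -1.12. Ikzf2 was the one member to pass the interaction test on this scale in the main fit (-4.09, SE 0.49, limma, adjusted p = 0.00021). Of all genes, 9.94% were lower by that test. Tgfb1 (-1.33, SE 0.42, adjusted p = 0.05) and Ccr8 (1.38, SE 0.45, adjusted p = 0.061) were near the threshold. Apart from the fits without 1 array, Tgfb1 was called in 8 of 12 alternatives and Ccr8 in 4 of 11. Il10 (-1.85, -1.08 and -0.44), Ebi3 (-1.88, -2.0 and -1.26), Ccr8 (-1.66, -3.04 and -1.37) and Tgfb1 (-3.50, -2.17 and -1.53) had values below 0, and among these 12 values that of Il10 at POD8 did not pass (adjusted p = 0.32). Ccr8 was well above background on no array, so its changes may be understated.

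**Figure D4:**
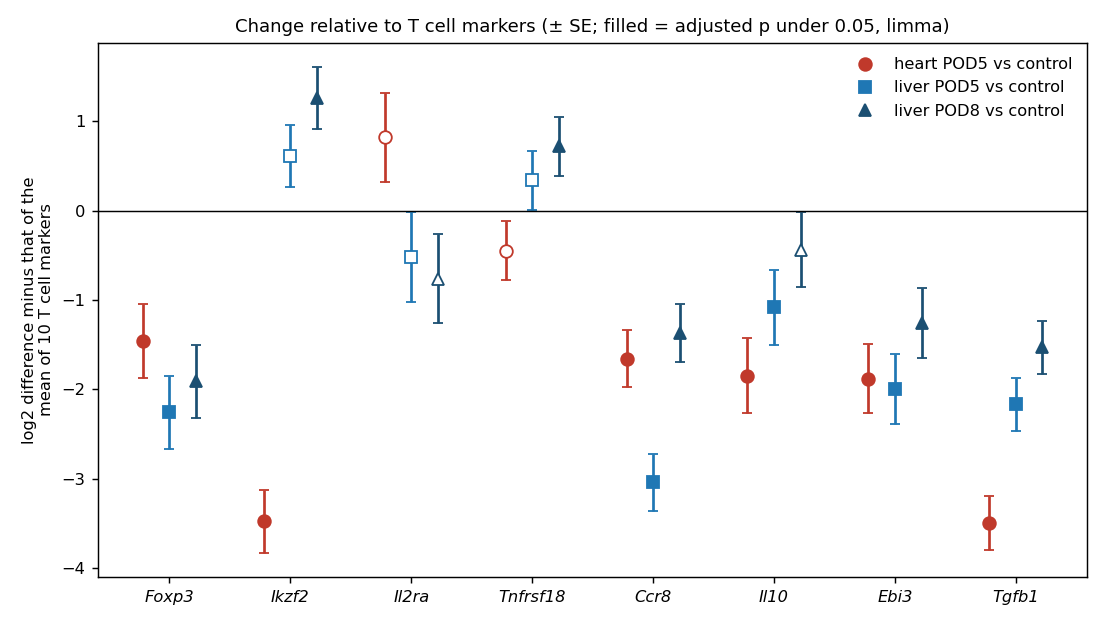
Log2 difference between allografts and controls after the mean of 10 T cell markers was subtracted on each array (vertical axis, ± SE), for the 8 genes (horizontal axis), n = 3 arrays a group. Filled points passed an adjusted p of 0.05 (limma). Il2ra and Tnfrsf18 lie within 1 of the zero line in all 3 comparisons, and Ikzf2 lies at -3.48 in the heart but at 0.61 and 1.26 in the liver.

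Other genes of the same pathways were read from 8 lists of 111 genes, 106 of them measured. The lists were chosen with earlier results of these data known. In the heart 44 rose and 12 fell, in the liver 41 rose and 4 fell at POD5, and 38 rose and 3 fell at POD8, with median log2 differences of 0.81, 0.63 and 0.59. Of all genes, 13.6% rose and 14.8% fell in the heart, 7.89% and 7.17% in POD5 livers and 6.64% and 4.96% in POD8 livers. None was called between POD8 and POD5 (limma), where 20 of the 106 had an unadjusted p under 0.05, and the methods' t-test with Benjamini-Hochberg adjustment called 0 as well. The share of all genes at that unadjusted cut was not computed, so the 20 are not read as a change of these pathways. In the interaction 16 heart differences were higher and 10 lower than those of the liver, beside 18.1% of all genes called in either direction.

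Most genes of the list called Treg surface and effector genes rose in both organs. The name is that of the list, and which cells carried these genes was not tested. Of 19 measured, 14 rose in hearts, 14 in POD5 livers and 13 in POD8 livers, beside 13.6%, 7.89% and 6.64% of all genes, and none fell. The list was chosen with earlier results of these data known. It holds Pdcd1, Ido1 and Tnfrsf9, which the study had itself reported as raised in these grafts, so the shares are not independent of those results. Pdcd1, the PD-1 inhibitory receptor, rose 31.1-fold in the heart (log2 4.96, SE 0.74, limma, adjusted p = 0.00044) and 75.8-fold (6.24, SE 0.74, adjusted p = 0.00021) and 70.3-fold (6.13, SE 0.74, adjusted p = 0.00028) in the liver. Ido1, a tryptophan-degrading enzyme, rose 108-fold in the heart (6.75, SE 0.93, adjusted p = 0.00026) and 41.9-fold and 50.8-fold in the liver (SE 0.93, adjusted p = 0.0025 and 0.0022). Tnfrsf9, the receptor 4-1BB of activated T cells, rose 26.4-fold in the heart (4.72, SE 0.43, adjusted p = 1.3e-05) and at least 8.57-fold and 8.36-fold in the liver. By the interaction test Tnfrsf4, the costimulatory receptor OX40, rose more in the heart (3.25, SE 0.70, adjusted p = 0.0091), and Entpd1, the ectonucleotidase CD39, had the lower heart difference (-2.05, SE 0.30, adjusted p = 0.0013).

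In the interleukin 2 pathway, Il2rb and Il2rg, which form the receptor together with Il2ra, rose in all 3 comparisons. Il2rb rose 40.5-fold in the heart (log2 5.34, SE 0.35, limma, adjusted p = 9.4e-07), 16.6-fold in the liver at POD5 (4.05, SE 0.35, adjusted p = 1.9e-05) and 10.9-fold at POD8 (3.44, SE 0.35, adjusted p = 7.1e-05). Socs1, a feedback inhibitor of cytokine signalling, rose 56.1-fold, 16.6-fold and 20.1-fold, and more in the heart than in the liver at POD5 by the interaction test (1.76, SE 0.37, adjusted p = 0.0079). Il2rg, the common gamma chain, rose 7.22-fold in the heart (2.85, SE 0.47, adjusted p = 0.00085) and 10.3-fold and 13.7-fold in the liver (SE 0.47, adjusted p = 0.00067 and 0.00034). Of the 12 genes of this list, 5 rose and 1 fell in the heart, 3 rose in the liver at POD5, and 4 rose and 2 fell at POD8, beside 13.6% and 14.8% of all genes in the heart, 7.89% and 7.17% at POD5 and 6.64% and 4.96% at POD8.

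In the interleukin 10 pathway the ligand-binding receptor Il10ra rose with its cytokine, 6.47-fold in the heart (log2 2.69, SE 0.16, limma, adjusted p = 4.9e-07), 3.12-fold in the liver at POD5 (1.64, SE 0.16, adjusted p = 5.3e-05) and 4.35-fold at POD8 (2.12, SE 0.16, adjusted p = 7.8e-06). Socs3, a target of Stat3 signalling, rose 4.15-fold in the heart (2.05, SE 0.21, adjusted p = 2.7e-05), more than in the liver by the interaction test (2.15, SE 0.29, adjusted p = 0.00095). Of the 6 genes, 4 rose and 1 fell in the heart, beside 13.6% and 14.8% of all genes. In the liver 2 rose on each day, beside 7.89% of all genes at POD5 and 6.64% at POD8.

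In the TGF-beta lists the genes that were called in the heart all fell. Of 11 ligand and activation genes, none rose and 4 fell there, beside 14.8% of all genes that fell, among them Tgfb3 (4.58-fold lower, log2 -2.19, SE 0.18, limma, adjusted p = 6.5e-06) and the latent TGF-beta binding proteins Ltbp4 (3.61-fold lower, -1.85, SE 0.21, adjusted p = 6.3e-05) and Ltbp3 (2.60-fold lower, -1.38, SE 0.25, adjusted p = 0.0015). Of 14 receptor and signalling genes, none rose and 5 fell, among them the receptors Tgfbr1 (2.94-fold lower, -1.55, SE 0.18, adjusted p = 7.9e-05) and Tgfbr2 (1.72-fold lower, -0.78, SE 0.23, adjusted p = 0.023) and the inhibitor Smad7 (2.79-fold lower, -1.48, SE 0.25, adjusted p = 0.0011). Endothelial markers moved alongside: of 4, 3 fell in the heart, and their mean was 8.37 to 9.04 in the allografts against 10.32 to 10.45 in the controls, while cardiomyocyte genes fell in 2 of 6. The part of these cells in the TGF-beta values was not tested. In the liver, 2 of the 11 ligand and activation genes rose and 2 fell at POD5 (median log2 difference -0.33). At POD8 2 rose and none fell (median -0.56). Of the 14 receptor and signalling genes, 2 rose at POD5 and 1 at POD8, and none fell. Of all genes, 7.89% rose and 7.17% fell at POD5, and 6.64% and 4.96% at POD8. Tgfbr2 rose 1.67-fold at POD5 (SE 0.23, adjusted p = 0.049) and 1.82-fold at POD8 (SE 0.23, adjusted p = 0.03) in the liver. Thbs1, an extracellular activator of latent TGF-beta, rose at least 4.39-fold and 3.37-fold there (SE 0.55, adjusted p = 0.00032 and 0.00067). By the interaction test the heart difference was the lower one for Tgfb3 (-1.62, adjusted p = 0.0022), Tgfbr1 (-1.60, adjusted p = 0.0023), Smad7 (-1.99, adjusted p = 0.0039) and Thbs1 (-4.63, adjusted p = 0.0029).

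Ebi3 pairs with Il27 in interleukin 27 and with Il12a in interleukin 35. Their allograft values, given here although the rule for naming genes did not pick them, differed by organ for Il27: it rose 2.16-fold in the heart (log2 1.11, SE 0.24, limma, adjusted p = 0.0047) and fell 2.04-fold in the liver at POD5 (-1.03, SE 0.24, adjusted p = 0.015) and 1.80-fold at POD8 (-0.85, SE 0.24, adjusted p = 0.041), an interaction of 2.14 (SE 0.34, adjusted p = 0.0022). Il12a differed by 0.83 (SE 0.60, adjusted p = 0.34) in the heart, 0.28 (adjusted p = 0.81) and -0.24 (adjusted p = 0.84) in the liver. Both were lower in heart than in liver allografts at POD5, Il12a 3.70-fold (log2 -1.89, SE 0.60, adjusted p = 0.027) and Il27 3.75-fold (-1.91, SE 0.24, adjusted p = 5.1e-05). The receptor chain Il12rb1 rose 75.4-fold in the heart (6.24, SE 0.21, adjusted p = 7.5e-09) and 3.80-fold in the liver at POD5 (1.93, SE 0.21, adjusted p = 0.0001), an interaction of 4.31 (SE 0.29, adjusted p = 1.2e-05). Stat4, which relays interleukin 12 signals, rose by 4.49 and 4.25 on the log2 scale in the liver (SE 0.41, adjusted p = 3e-05 and 4.9e-05), and its heart difference was lower (-3.52, SE 0.58, adjusted p = 0.0024). Of the 10 measured genes, 4 rose in each comparison, beside 13.6%, 7.89% and 6.64% of all genes in hearts, POD5 livers and POD8 livers. In each of the liver comparisons 1 fell, beside 7.17% and 4.96% of all genes.

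Of the ligands of Ccr8, Ccl1 rose in the heart and in the liver at POD8, and Ccl8 on both days in the liver. Ccl1, its main ligand in mice, rose at least 35.5-fold in the heart (log2 5.34, SE 0.42, limma, adjusted p = 3.8e-06) and at least 2.28-fold in the liver at POD8 (3.09, SE 0.42, adjusted p = 0.00059), differed by 0.99 in the liver at POD5 (SE 0.42, adjusted p = 0.13), and was at least 17.7-fold higher in heart than in liver allografts at POD5 (4.26, SE 0.42, adjusted p = 5.2e-06). Ccl8, which also binds mouse Ccr8, rose 7.79-fold in the liver at POD5 (2.96, SE 0.53, adjusted p = 0.003) and 23.6-fold at POD8 (4.56, SE 0.53, adjusted p = 0.00021), and differed by 1.42 in the heart (SE 0.53, adjusted p = 0.064). Of the 10 genes of GITR and CCR8 ligands and Treg chemotaxis, 6 rose in hearts, 3 in POD5 livers and 7 in POD8 livers. The shares over all genes were 13.6%, 7.89% and 6.64%, and none of the 10 fell. Ccr7, a lymph node homing receptor, was among those that rose in all 3, 5.36-fold, 6.61-fold and 9.59-fold higher (adjusted p = 0.0016, 0.0017 and 0.00061).

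Of 24 measured Foxp3 partners and T helper regulators, 11 rose and 1 fell in the heart. In the liver 11 rose and 1 fell at POD5, and 5 rose at POD8. Of all genes, 13.6% rose and 14.8% fell in the heart, 7.89% and 7.17% at POD5, and 6.64% and 4.96% at POD8. Tbx21, the Th1 regulator T-bet, rose 26.4-fold in the heart (log2 4.72, SE 0.41, limma, adjusted p = 8.2e-06) and 16.5-fold in the liver at POD5 (4.05, SE 0.41, adjusted p = 6.4e-05). Irf4, needed for effector regulatory T cells and other activated lymphocytes, rose 9.57-fold in the heart (3.26, SE 0.44, adjusted p = 0.00023) and at least 4.16-fold and 2.42-fold in the liver (SE 0.44, adjusted p = 0.0001 and 0.00052). Ikzf3, a relative of Ikzf2, rose 8.77-fold in the heart (3.13, SE 0.24, adjusted p = 2.8e-06), more than in the liver by the interaction test (1.77, SE 0.33, adjusted p = 0.0048), the reverse of the brightest Ikzf2 probe. Gata3 rose 25.7-fold and 15.7-fold in the liver (SE 0.73, adjusted p = 0.0014 and 0.0045). Cd4 itself rose 1.70-fold in the heart (0.77, SE 0.16, adjusted p = 0.0033) and differed by -0.16 (SE 0.16, adjusted p = 0.56) and -0.40 (SE 0.16, adjusted p = 0.13) in the liver. These differences were smaller than those of the mean of the T cell markers. Cd4 was dim, however: its summed signal with Cd40lg was 4.18 to 5.73. The lowest signal well above background on an array was 2.37 to 4.56, and Cd40lg was well above background in no group. The Cd4 differences may therefore be understated and give no level of the CD4 lineage.

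**Figure D5:**
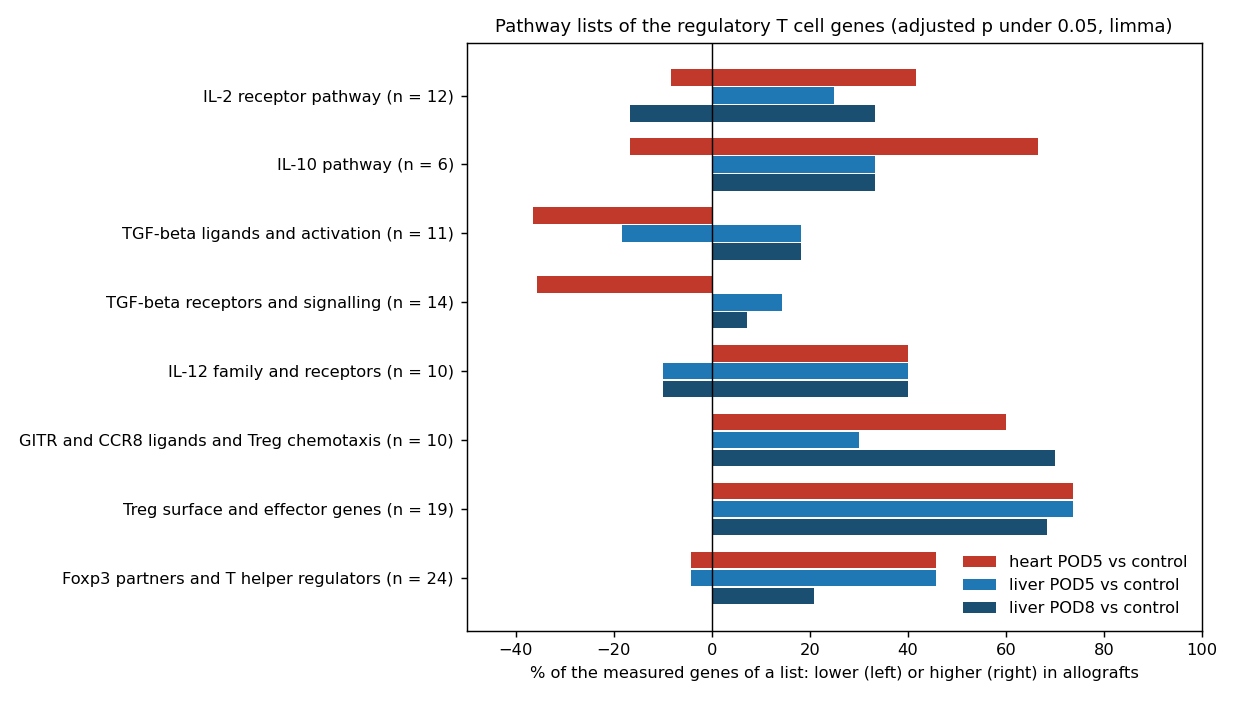
Share of the measured genes of each of 8 pathway lists (vertical axis, with the number measured) that rose (right of 0) or fell (left of 0) in allografts against controls of the same organ, in percent (horizontal axis; adjusted p under 0.05, limma). Treg surface and effector genes rose in 14 of 19, 14 of 19 and 13 of 19, and the 2 TGF-beta lists have bars to the left alone in the heart.

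The genes whose pattern over the 5 group means was most like that of a member were found among 14931 genes by the root mean square difference of the centred means, as a description over 5 points. For Tnfrsf18 these were Procr (0.04), Gbp3 (0.11) and Coro2a (0.13). For Il10 they were Arhgap30 (0.10), Msr1 (0.11) and Galnt6 (0.11), for Ebi3 Dok1 (0.10), Xaf1 (0.11) and Jak2 (0.13), and for Tgfb1 Tnfrsf26 (0.04), Ppp1r7 (0.08) and Usp22 (0.09). Il2ra and Ikzf2, with wider ranges, had looser neighbours: Olfr291 (0.29), 9930111J21Rik2 (0.35) and Gpr84 (0.38) for Il2ra, and Mcoln2 (0.21), Cxcr6 (0.23) and Ckap2l (0.25) for Ikzf2. Foxp3 and Ccr8 were not compared, since they were not well above background on all arrays of any group.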

How the data were processed

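Total RNA was labelled with Cy3 and hybridised to Agilent mouse arrays, 1 per sample. The deposited values are intensity readings: the authors scanned each array and extracted spots with Feature Extraction 10.5.1.1 per the file headers, and the processed signal used here is already background-subtracted by that software. Outlier spots (47 to 113 an array) were dropped, log2 signals of 43379 spots averaged to 41174 probes, and 41003 quantile normalized over the 15 arrays. The study's methods quantile normalize too, after a natural log, and do not say over which arrays. One fit in limma 3.58.1 (R 4.3.3) with a mean per group gave all comparisons, with Benjamini-Hochberg adjustment over all probes and a threshold of 0.05; it was tested on simulated data. A gene was read from its brightest probe. Accessions were matched to RefSeq symbols for 26690 probes (64.8%). From each list and comparison, at most 3 called genes with the largest difference are named. The members and lists were chosen with earlier results of these data known. Alternatives covered scaling, background, filters, blocks, probe choice, adjustment, the methods' t-test and leaving out each array. The background alternative, normexp, added an offset of 50 before the log. The number of arrays limits the precision.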

Additional observations from a re-analysis of the deposited data

Results flagged for a closer look

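The difference of 2 genes between allografts and controls at POD5 was not the same in heart and liver by the test of that difference itself. For Ikzf2, on its brightest probe, the heart difference was lower than that of the liver by -3.55 on the log2 scale, and for Ccr8 it was higher by 1.92. The other Ikzf2 probes gave -1.08, 1.16 and 0.97 and did not pass. The liver controls of Ikzf2 and all 15 arrays of Ccr8 were not well above background. No group was large enough for a search for single arrays that stand apart.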

How the results depend on the processing

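With Bonferroni adjustment, 2, 2 and 2 of the 8 genes were called in the heart, the liver at POD5 and the liver at POD8, 0 in the interaction, 1 between controls and 1 between POD5 allografts, and of the other pathway genes 15, 11, 12, 1, 19 and 11. The methods' t-test with Bonferroni adjustment called 0 members and 0 pathway genes in the 6 comparisons between groups; after Benjamini-Hochberg it called 0 members and 3 pathway genes in the liver at POD5, 10 pathway genes at POD8 and 3 members between POD5 allografts. The methods' significance score from group medians and probes of like signal (SFC), with Bonferroni adjustment, called 0, 1 and 1 members and 9, 13 and 16 pathway genes in the 3 allograft comparisons. The liver POD5 arrays and their controls fitted alone gave 3 members and 23 pathway genes. Scaling to macrophage markers, which shifts every gene of a comparison by the same amount, gave 2 members and 26 pathway genes at POD5, and 2 and 62 at POD8. The mean of all probes called 1 member between POD8 and POD5. The interaction had 4 members with 75th percentile scaling and 1 with the probe filter. Relative to T cell markers, Bonferroni gave 2, 1 and 0, the t-test with Bonferroni 0, 0 and 0 and SFC 0, 0 and 0. At POD5 in the liver normexp gave 8 and the probe filter 3. The interaction gave 3 with quantile normalization within each organ, 4 with 75th percentile scaling and 4 with the mean of all probes. It gave 2 with normexp, the probe filter, outlier spots kept, the replicate block, slide as a random block or Cd3 genes alone. On this scale the main fit called 98.4%, 96.5% and 94.6% of all genes lower in the 3 allograft comparisons. The share of all genes was not computed for the alternatives on this scale and is not given for the others here. The counts in this paragraph are therefore no result about the members in particular.

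Directions turned as follows. Ikzf2 in the heart was -0.0035 with normexp, -0.12 with slide and -0.06 with scan day as a random block. Tgfb1 in the heart was 0.0045 with 75th percentile scaling, 0.02 with SFC and 0.47 with macrophage scaling. Macrophage scaling gave Foxp3 -0.21 and Tgfb1 -0.12 at POD5, and Foxp3 -0.80, Ccr8 -0.27, Ebi3 -0.16 and Tgfb1 -0.42 at POD8. Ccr8 was 0.02 at POD5 with normexp and -0.01 at POD8 with 75th percentile scaling. Foxp3 between POD8 and POD5 was 0.08 with normexp. In the interaction normexp gave Tnfrsf18 0.34 and Il10 0.17, and 75th percentile scaling gave Il10 0.10. Relative to T cell markers, normexp gave Il2ra -0.67 and Tnfrsf18 0.47 in the heart, Ikzf2 -1.02 and -0.58 in the liver, and Foxp3 -0.22 and Ccr8 -0.23 in the interaction, where 75th percentile scaling gave Ebi3 -0.20; the mean of all probes gave Ikzf2 -1.97 and -1.12, and Cd3 genes alone gave Ikzf2 -0.26 and Tnfrsf18 -0.53 and -0.28. The cause was not tested.

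Without 1 array at a time, members called ranged over 6 to 6, 4 to 6, 4 to 7, 0 to 1, 2 to 3, 5 to 6 and 4 to 6 in the heart, liver POD5, liver POD8, POD8 against POD5, interaction, control and POD5 allograft comparisons, and pathway genes over 50 to 60, 37 to 50, 36 to 48, 0 to 1, 22 to 29, 66 to 77 and 43 to 61. Relative to T cell markers the ranges were 6 to 7, 4 to 6, 5 to 6 and 1 to 2. For the fits without 1 array the share of all genes called was not computed. Signs turned for Ikzf2 (-0.22 to 0.40) and Tgfb1 (-0.10 to 0.10) in the heart, for Foxp3 (-0.43 to 0.47), Ikzf2 (-0.01 to 0.49), Il2ra (-1.28 to 0.08) and Tnfrsf18 (-0.22 to 0.15) between POD8 and POD5, for Il10 in the interaction (-0.62 to 0.05), for Foxp3 between controls (-0.69 to 0.08) and for Ebi3 relative to T cell markers in the interaction (-0.39 to 0.43). Same-numbered arrays had deviations that correlated from -0.12 to 0.16, so the numbers do not pair them; the replicate block gave 6, 5, 6, 0, 2, 6 and 5 members. With scaling to the 75th percentile the median difference of all probes was 0.47 in the heart, -0.37 and -0.46 in the liver, 0.64 in the interaction and -0.75 between controls, in place of 0.02, -0.07, -0.08, 0.08 and -0.06. Between controls 28.4% of calls were then higher against 48.4%, and in the interaction 82.6% against 49.4%. Between POD8 and POD5, 87.5% of 8 calls were higher against 75% of 12. Quantile normalization within each organ gives no level between organs, so its values there, where the median difference of all probes was 0.96 between controls and 1.14 between POD5 allografts, were not used.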
